A study of Mus musculus with 6 samples.

Results

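The genes described here encode the granule proteins, the oxidase, the surface receptors and the abundant cytosolic proteins of neutrophils, the short-lived white cells that are made in large numbers in bone marrow. They were read in whole bone from 3 sites of the mouse skeleton: the calvaria, the mandible and the ulna. A list of 33 genes was set by name, and a gene was measured through probe sets for which the annotation of the array gave that symbol and no other. Of the 33, 28 had such a probe set (32 probe sets in all, against 45101 on the array and 18193 genes with a probe set of 1 symbol). Not measured were Mmp25, a granule metalloproteinase, Cebpe, a transcription factor of late granulocytes, Fpr1, a receptor for bacterial peptides, Stfa1, a stefin, and Retnlg, a resistin-like protein, for which the table used gave no probe set of 1 symbol. All 28 measured genes lay above the array median on all 6 arrays, so none was lost to the filter on low signal.

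The animals were male, skeletally mature mice of 24 to 26 grams, given in the methods as Black CD57, with no treatment and no genetic change named. No age in weeks was given. Each site had 2 arrays. Calvaria was described as used without its sutures, the ulna as cleared of soft tissue and epiphyses, and the mandible as used with its teeth. Even so, 10 skeletal muscle markers gave a summed signal of 53071 in ulna, 5899 in calvaria and 45702 in mandible. The bone was ground in liquid nitrogen before RNA was extracted, and whether marrow was taken out of these bones is not given in the sources used here. The study's pilot had 10 mice in 2 groups. Neither the labels nor the methods give the number of mice behind an array or whether RNA was pooled, so the spread that the p-values rest on is that of these arrays and may be technical. With 2 arrays for each site, precision is limited.

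Neutrophils form in the marrow through a fixed series of stages. At the promyelocyte stage the cell fills its primary (azurophil) granules with myeloperoxidase and the serine proteases neutrophil elastase, proteinase 3 and cathepsin G. Myelocytes and metamyelocytes then make the secondary and tertiary granules, with lactoferrin, cathelicidin, lipocalin and metalloproteinases, and the last stages add receptors and secretory vesicles. The transcripts follow the same sequence, so primary granule mRNA belongs to early cells and is largely gone from mature ones. When a microbe is engulfed, the NADPH oxidase assembles on the membrane of the phagosome that encloses it and makes superoxide. From the products of superoxide myeloperoxidase forms hypochlorous acid. Adult marrow keeps a large reserve of granulocytes, so that whole bone with marrow inside is rich in these transcripts.

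The measurement is the MAS5 signal that the authors deposited, an intensity on a linear scale, and the values given for each array are this signal. For the comparisons the signals of an array were divided by their median (31.0 and 30.6 for ulna, 32.5 and 32.4 for calvaria, 33.6 and 33.2 for mandible) and log2 was taken. Differences are given on this log2 scale with the standard error (SE) of the limma fit over 25233 probe sets, and p-values are adjusted over all of them. A call required a difference of 2-fold or more besides an adjusted p under 0.05. A gene with several probe sets was read from the brightest. Signals of different probe sets are not comparable as amounts of RNA, so levels were compared between sites within a gene. Signal was set against signal across probe sets only to describe how differences went with brightness and in sums over lists.

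Neutrophil transcripts were in most cases lowest in mandible and highest in ulna. By the mean of the scaled log2 values, 26 of the 28 genes stood in the order ulna, calvaria, mandible, an order held by 33.2% of all tested probe sets. In 25 genes the arrays of neighbouring sites in this order did not overlap, against 16.0% of all probe sets. Both steps passed the adjusted p in 19 genes, against 4.67% of probe sets, and 5 others passed only in that mandible was below both other sites, against 5.80%. The exceptions to the order were Chil3, which stood equally high in calvaria and ulna, and Cxcr2, whose mandible arrays lay on both sides of calvaria. In bulk bone, fewer neutrophils and less RNA per neutrophil cannot be told apart.

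**Figure D1:**
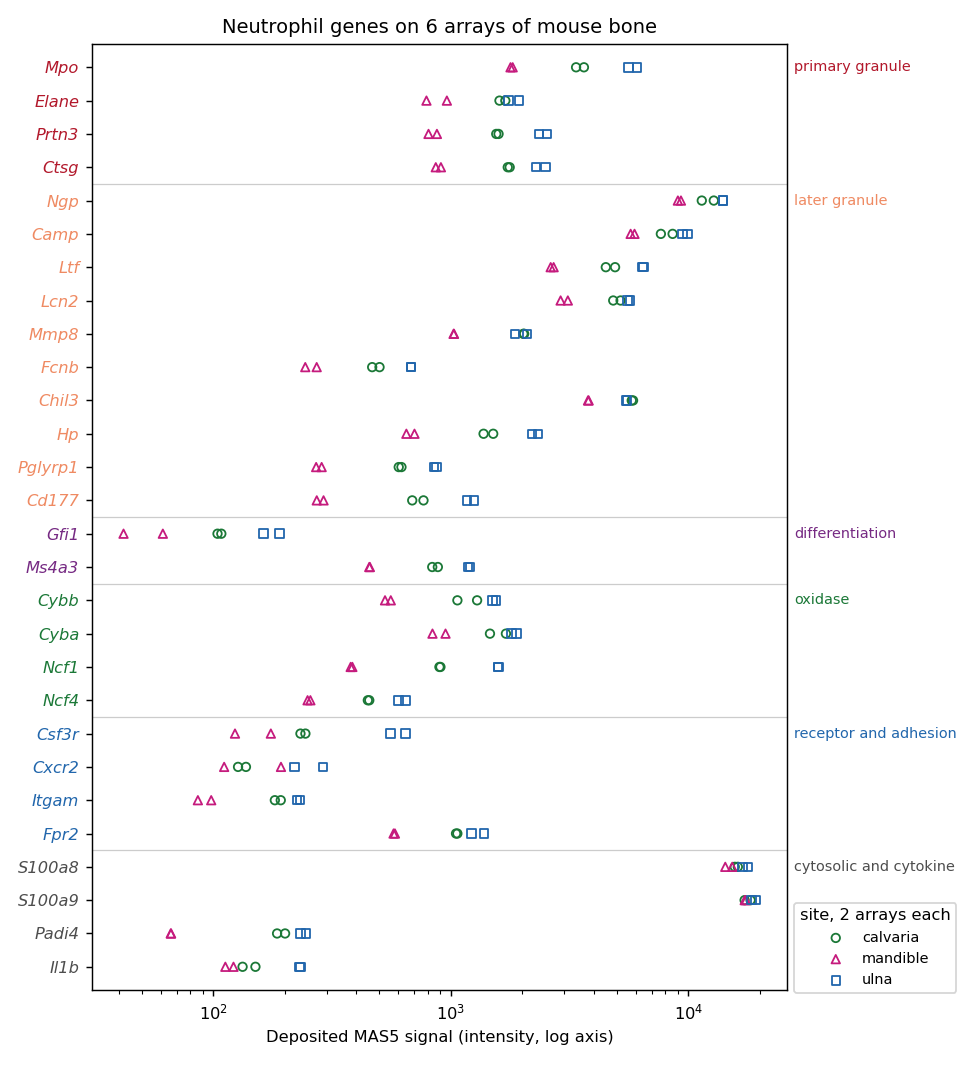
Deposited MAS5 signal (intensity, log axis) of 28 neutrophil genes on 6 arrays of mouse bone, with 2 points each for calvaria, mandible and ulna and genes grouped by role. The mandible points lie to the left of the ulna points in every gene, and only S100a8 and S100a9 have all 6 points close together.

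Between mandible and ulna, neutrophil genes were lower in mandible throughout. All 28 genes were lower past the adjusted p (background 26.6% of probe sets) and 22 of them by at least 2-fold (background 11.3%), while none was higher (background 9.36% for calls and 16.8% for the adjusted p alone). In all 28 both mandible arrays lay below both ulna arrays (background 43.2%, and 28.6% for the opposite direction). Mandible levels ran from 21.4% of ulna for Cd177 to 85.3% for S100a9. The median difference over the 28 genes was -1.43, beside -0.13 over all tested probe sets. The 6 genes under 2-fold were S100a8, S100a9, Ngp, Camp, Chil3 and Cxcr2. Without the division by the array median, the median of all probe sets moved by 0.117, to -0.02, and that of the 28 genes to -1.31.

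Calvaria lay between the other sites and nearer to ulna. Here 2 of 28 genes were called lower than in ulna (background 4.95%), the receptors Csf3r and Cxcr2, and none higher (background 6.90%). Another 21 passed the adjusted p with a smaller fall, which makes 23 lower genes in all (background 16.6%). The median difference was -0.53, beside -0.08 over all probe sets. Elane, Itgam, Padi4, Mmp8 and Chil3 did not pass. In 26 genes both calvaria arrays lay below both ulna arrays (background 38.0%). The count of 2 became 1 without calvaria replicate 1 or without ulna replicate 2, where Cxcr2 was lost.

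Mandible was also below calvaria. Of the 28 genes, 10 were called lower (background 3.48%) and none higher (background 4.09%), and 24 were lower past the adjusted p with no limit on size (background 13.5%, and 8.38% for higher). In 27 genes both mandible arrays lay below both calvaria arrays after scaling (background 36.7%), the exception being Cxcr2. The median difference was -0.95, beside -0.09 over all probe sets. S100a8, S100a9, Il1b and Cxcr2 did not pass. The 3 comparisons share their arrays, so each gives its own values and they are not independent of each other. Leaving out each array gave 8 to 13 calls here, and Gfi1, Itgam and Ctsg were under 2-fold without mandible replicate 2 (-0.84, -0.98 and -0.998).

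**Figure D2:**
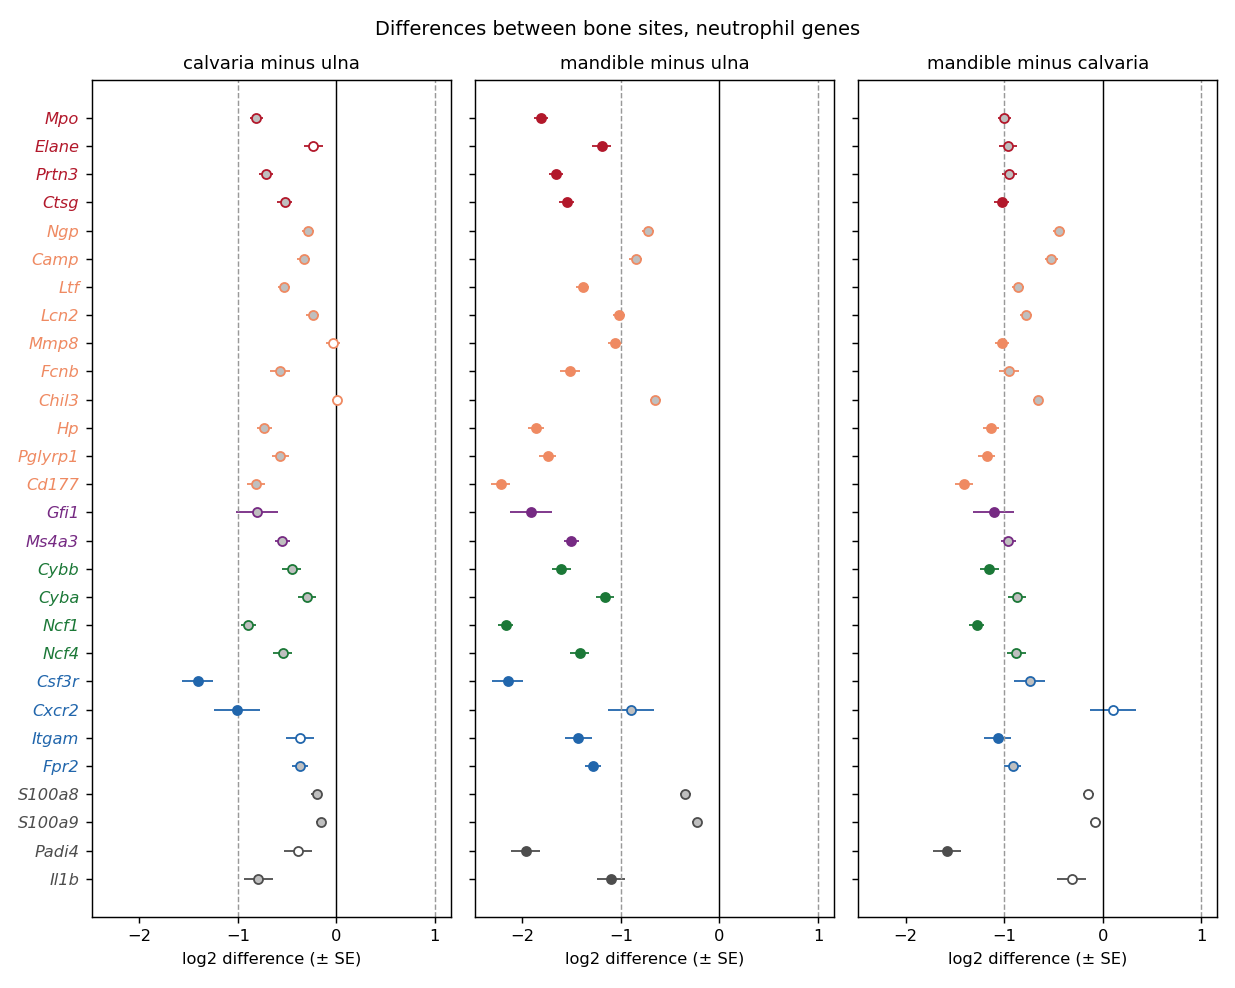
Log2 difference of the 28 genes in the 3 comparisons of sites, with error bars of 1 SE from the limma fit, 2 arrays for each site; full colour marks called genes, grey filling those past the adjusted p by under 2-fold, open points those that did not pass, and dashed lines 2-fold. Mandible minus ulna reaches -2.22 for Cd177, and calvaria minus ulna is nearest to 0 for Chil3 and Mmp8.

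The upstream sequences of the 4 primary granule genes and of 3 later granule genes are shown because these are the groups that the comparison sets against each other. They are the 250 bases before the transcription start, 5′ to 3′ on the strand of the gene, from RefSeq on GRCm38.p6. Capitals mark 3 short motifs on either strand, chosen with the sequences in view: GAGGAA, a core bound by PU.1, the factor that commits cells to the myeloid line; GCAAT, a core of C/EBP sites; and TGTGG, the core of RUNX sites. A match on the opposite strand is shown by its reverse complement.
Mpo: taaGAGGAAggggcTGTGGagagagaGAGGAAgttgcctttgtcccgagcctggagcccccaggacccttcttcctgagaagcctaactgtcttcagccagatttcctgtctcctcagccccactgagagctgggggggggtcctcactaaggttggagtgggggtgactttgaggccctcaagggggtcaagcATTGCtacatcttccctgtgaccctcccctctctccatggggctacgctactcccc
Elane: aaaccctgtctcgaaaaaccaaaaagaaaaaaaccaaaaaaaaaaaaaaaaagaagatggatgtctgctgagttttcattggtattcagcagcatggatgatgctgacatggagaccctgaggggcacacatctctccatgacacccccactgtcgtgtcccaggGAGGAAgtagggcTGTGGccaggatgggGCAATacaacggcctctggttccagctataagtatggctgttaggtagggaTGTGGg
Prtn3: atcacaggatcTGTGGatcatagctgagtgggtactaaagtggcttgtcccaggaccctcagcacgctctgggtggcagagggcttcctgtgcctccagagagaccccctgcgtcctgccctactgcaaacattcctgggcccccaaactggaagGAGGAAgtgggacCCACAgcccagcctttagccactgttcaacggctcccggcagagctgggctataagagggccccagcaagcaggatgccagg
Ctsg: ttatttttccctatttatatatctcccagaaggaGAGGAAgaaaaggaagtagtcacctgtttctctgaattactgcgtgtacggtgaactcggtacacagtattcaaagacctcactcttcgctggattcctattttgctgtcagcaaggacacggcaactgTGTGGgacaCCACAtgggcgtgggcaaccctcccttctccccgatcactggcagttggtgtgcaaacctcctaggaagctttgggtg
Ltf: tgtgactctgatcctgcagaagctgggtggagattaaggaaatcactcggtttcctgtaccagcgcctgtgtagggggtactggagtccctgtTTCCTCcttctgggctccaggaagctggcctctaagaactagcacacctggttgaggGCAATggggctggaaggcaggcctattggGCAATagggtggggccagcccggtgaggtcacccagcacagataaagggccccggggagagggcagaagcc
Camp: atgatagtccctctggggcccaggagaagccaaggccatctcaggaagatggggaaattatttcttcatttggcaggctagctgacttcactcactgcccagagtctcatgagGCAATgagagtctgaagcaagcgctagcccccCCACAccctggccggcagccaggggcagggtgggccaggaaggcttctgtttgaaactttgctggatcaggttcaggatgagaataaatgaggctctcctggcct
Ngp: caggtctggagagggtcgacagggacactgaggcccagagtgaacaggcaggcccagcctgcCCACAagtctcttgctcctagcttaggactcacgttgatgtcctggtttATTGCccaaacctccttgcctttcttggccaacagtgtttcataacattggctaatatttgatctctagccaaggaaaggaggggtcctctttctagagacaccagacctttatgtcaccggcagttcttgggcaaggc
The sequence of Mpo is chr11:87793534-87793783 (plus strand), that of Prtn3 is chr10:79879417-79879666 (plus) and that of its neighbour Elane is chr10:79886062-79886311 (plus). That of Ctsg is chr14:56102575-56102824 (minus). The 3 later genes lie on chromosome 9, Camp at chr9:109849457-109849706 (minus), Ngp at chr9:110419558-110419807 (plus) and Ltf at chr9:111019042-111019291 (plus). GAGGAA was found before all 4 primary genes and before 6 of the 10 later genes with a sequence, against 23.3% of 32817 upstream sequences of the same length. It begins 85 bases before the start of Elane and 95 before that of Prtn3, and Mpo has it at 247 and at 224. GCAAT was found in 2 of 4 primary and 5 of 10 later genes (23.1% of all), and TGTGG in 4 of 4 and 3 of 10 (49.3% of all). Over the 30 listed genes with a sequence, GAGGAA was found in 16, GCAAT in 13 and TGTGG in 14. A listed gene counted if any of its upstream sequences held the motif, whereas the shares of all are of single sequences. For a gene with several sequences this can only raise the count, so the 2 measures are not strictly alike. A match of letters describes the sequence and does not show that a factor binds there.

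The primary granule genes fell from ulna to calvaria and again to mandible, except that the first step of Elane did not pass the test. Mpo, the peroxidase that gives neutrophils and pus their green colour, read 5597 and 6058 in ulna, 3363 and 3629 in calvaria and 1819 and 1781 in mandible. The 3 sites do not overlap, and the means were 5827 ± 326 in ulna, 3496 ± 188 in calvaria and 1800.0 ± 26.5 in mandible (SD, n = 2 each). Calvaria held 56.9% of the ulna level (log2 difference -0.81, SE 0.07, limma adjusted p = 6.28e-06) and mandible 28.5% (-1.81, SE 0.07, adjusted p = 1.37e-08). Prtn3, proteinase 3, a protease that cleaves matrix and cytokines, read 2344 and 2541 in ulna, 1551 and 1586 in calvaria and 873 and 804 in mandible. It too fell at both steps without overlap, with differences of -0.71 in calvaria and -1.66 in mandible against ulna (SE 0.075, limma adjusted p = 3.72e-05 and 5.03e-08). Ctsg, cathepsin G, a chymotrypsin-like protease, read 2281 and 2504 in ulna, 1767 and 1734 in calvaria and 907 and 863 in mandible. It was the primary gene past 2-fold between mandible and calvaria (-1.03, SE 0.07, limma adjusted p = 4.28e-06), while Mpo stood at -0.998 there, just under the limit. Elane, neutrophil elastase, mutated in inherited neutropenias, read 1745 and 1929 in ulna, 1600 and 1694 in calvaria and 961 and 788 in mandible. Calvaria and ulna arrays of Elane did not overlap, but their difference of -0.23 (SE 0.10) missed the threshold (limma adjusted p = 0.0944). In mandible it was at 43.7% of ulna (-1.19, adjusted p = 3.03e-06). Ctsg was no longer past 2-fold in mandible against calvaria on the values as deposited, at -0.98, or without mandible replicate 2, at -0.998.

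Among the later granule genes, Ngp, Camp and Chil3 gave the smallest differences of mandible from ulna. Ngp, neutrophilic granule protein, a cystatin-like protein of secondary granules, read 13942 and 13945 in ulna, 11378 and 12780 in calvaria and 9296 and 9023 in mandible. Camp, the cathelicidin antimicrobial peptide, read 9434 and 9917 in ulna, 7652 and 8575 in calvaria and 5926 and 5708 in mandible. Both were lowest in mandible without overlap, with differences against ulna of -0.72 for Ngp (SE 0.06, limma adjusted p = 4.18e-06) and -0.85 for Camp (SE 0.065, adjusted p = 2.12e-06), neither of which reached 2-fold. Chil3, a chitinase-like lectin that macrophages also make, read 5458 and 5503 in ulna, 5843 and 5769 in calvaria and 3799 and 3776 in mandible. Its calvaria and ulna values overlapped after scaling (0.01, SE 0.05, limma adjusted p = 0.941), and only mandible was lower, at 63.7% of ulna (-0.65, adjusted p = 3.59e-06). Lcn2, lipocalin, which binds the iron carriers of bacteria, read 5538 and 5670 in ulna, 4821 and 5178 in calvaria and 3105 and 2895 in mandible. Ltf, lactoferrin, the iron-binding protein that defines secondary granules, read 6411 and 6477 in ulna, 4487 and 4908 in calvaria and 2705 and 2629 in mandible. Ltf moved more than Lcn2 at each step: mandible held 38.2% of the ulna level of Ltf (-1.39, SE 0.06, limma adjusted p = 4.63e-08) and 49.3% of that of Lcn2 (-1.02, SE 0.06, adjusted p = 4.09e-07). The call of Lcn2 lies at the limit, since its difference was -0.90 on the values as deposited and -0.98 without mandible replicate 2.

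The later granule genes with lower signals fell further, except Mmp8. Cd177, a surface protein held in secondary granules that pairs with proteinase 3, read 1168 and 1252 in ulna, 687 and 766 in calvaria and 272 and 291 in mandible. It had the lowest mandible level of the 28 genes relative to ulna, at 21.4% (-2.22, SE 0.09, limma adjusted p = 3.45e-08), and was also called between mandible and calvaria (-1.41, adjusted p = 2.55e-06). Hp, haptoglobin, a haemoglobin-binding protein that the liver makes in bulk, read 2326 and 2196 in ulna, 1372 and 1506 in calvaria and 649 and 702 in mandible. Pglyrp1, which binds bacterial peptidoglycan, read 869 and 849 in ulna, 603 and 619 in calvaria and 271 and 285 in mandible. Both fell at each step with no overlap, to 27.5% of ulna in mandible for Hp (-1.86) and 29.8% for Pglyrp1 (-1.75). Fcnb, ficolin B, a lectin of the complement system, read 678 and 680 in ulna, 466 and 500.2 in calvaria and 244 and 272 in mandible, with mandible at 34.9% of ulna. Mmp8, the neutrophil collagenase, was the exception: it read 2095 and 1856 in ulna, 2033 and 2017 in calvaria and 1030 and 1026 in mandible. Ulna and calvaria overlapped for Mmp8 (-0.04, SE 0.07, limma adjusted p = 0.737, with a sign that turned on the values as deposited, at 0.04), whereas mandible was called lower than ulna (-1.06, adjusted p = 8.97e-07) and lower than calvaria (-1.02, adjusted p = 3.98e-06). On the values as deposited these mandible differences were -0.94 and -0.98, under 2-fold.

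Set against each other, primary and later granule genes differed by at most 0.25 log2 units in their mean change. All 4 primary genes and 7 of 10 later genes were called lower in mandible than in ulna (background 11.3%), with median differences of -1.61 and -1.22. Against calvaria, 1 of 4 and 4 of 10 were called lower in mandible (background 3.48%), with medians of -0.98 and -0.90. In calvaria against ulna no gene of either group was called (background 4.95% lower), with medians of -0.62 and -0.43. The mean log2 value of the primary genes minus that of the later genes was -0.21 and -0.08 on the ulna arrays, -0.28 and -0.33 on the calvaria arrays and -0.32 and -0.47 on the mandible arrays. Both ulna arrays were highest on this measure, but the nearest arrays of ulna and calvaria lay closer together than the 2 arrays of ulna, and a mandible array lay between the 2 of calvaria. Between sites the primary genes fell by more than the later genes by a mean of 0.25 log2 units in mandible against ulna (-1.55 and -1.30), and the contrast was -0.16 in calvaria against ulna and -0.09 in mandible against calvaria. Leaving out each array in turn gave -0.323 to -0.177 in mandible against ulna, -0.227 to -0.094 (the latter without ulna replicate 2) in calvaria against ulna and -0.162 to -0.016 in mandible against calvaria, where mandible replicate 1 or 2 left out gave the ends. This measure has no p, since the members were chosen.

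Differences between sites tended to be smaller in brighter genes. Over the 28 genes, the difference of mandible from ulna rose towards 0 with the mean signal of the probe set (Spearman rho = 0.59, Pearson r = 0.62), likewise in calvaria against ulna (0.63 and 0.56) and in mandible against calvaria (0.41 and 0.39). These are descriptions over genes that share their arrays. Ngp and Camp, 2 of the 3 later genes with a signal above the highest of Mpo, were among the genes with the smallest differences. The third, Ltf, stood at -1.39 in mandible against ulna, near the median of the 28 genes (-1.43). On no array did 7 of the later genes exceed 6058, the highest signal of Mpo. This set was not matched to the primary genes in brightness. The mean log2 signals of its members Chil3 (7.26) and Lcn2 (7.09) were above that of Mpo (6.69), the brightest primary gene. Compared with these 7, the primary genes stood at -0.115 in mandible against ulna instead of -0.25. In mandible against calvaria they stood at 0.035 instead of -0.09, so the sign turned. In calvaria against ulna the value was -0.15 instead of -0.16. The part of signal intensity in the difference between primary and later genes was not tested.

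**Figure D3:**
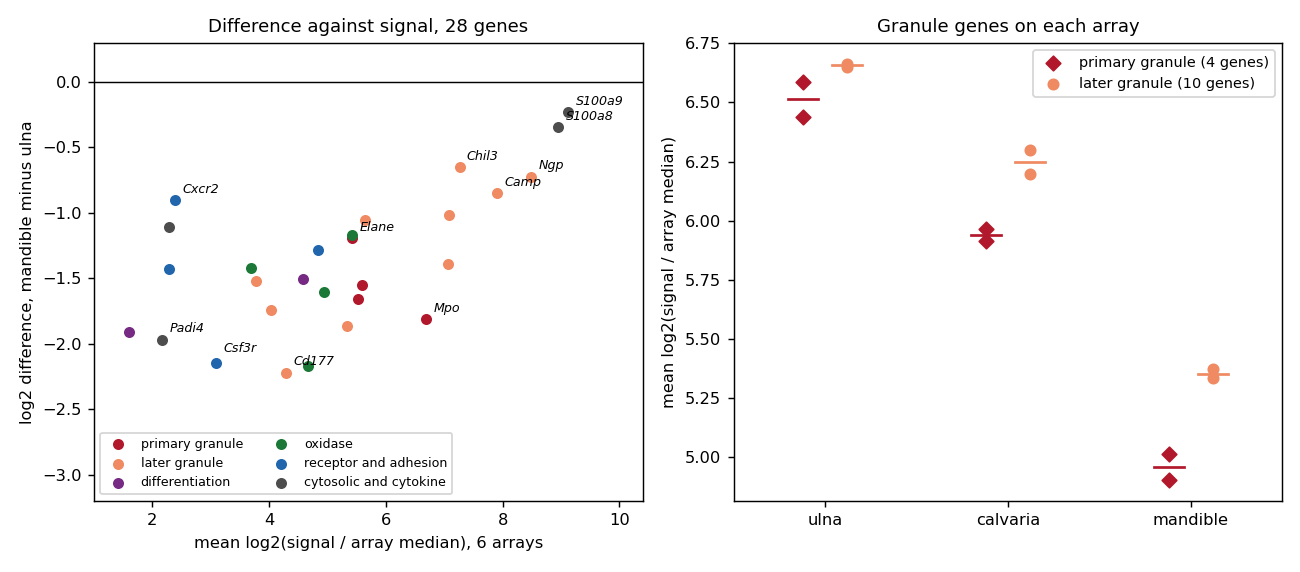
Left, log2 difference of mandible minus ulna against the mean log2 signal (relative to the array median) of 28 genes, coloured by role; right, mean log2 value of 4 primary and 10 later granule genes on each of the 6 arrays, with bars at the mean of 2 arrays. On the left the brightest genes, S100a8 and S100a9, lie nearest to 0, and on the right both groups fall from ulna to calvaria to mandible.

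The genes of granulocyte differentiation moved with the granule genes. Gfi1, a zinc finger repressor without which neutrophils do not mature, read 189 and 163 in ulna, 108 and 104 in calvaria and 61.2 and 41.8 in mandible. Its SE of 0.21 was wide beside the 0.08 of Ms4a3, but the sites did not overlap and mandible was at 26.6% of ulna (-1.91, limma adjusted p = 3.22e-05). Ms4a3, a membrane protein of granulocyte and monocyte progenitors, read 1177 and 1201 in ulna, 834 and 881 in calvaria and 455 and 453 in mandible. Its differences from ulna were -0.55 in calvaria and -1.51 in mandible (SE 0.08), and it fell at both steps with no overlap.

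All 4 oxidase genes were called lower in mandible than in ulna (background 11.3%). The enzyme has a membrane pair, Cybb (the catalytic subunit) and Cyba (its stabilising partner), and cytosolic subunits, of which Ncf1 organises the assembly and Ncf4 binds phagosome lipid. Ncf1, mutated in a form of chronic granulomatous disease, read 1578 and 1584 in ulna, 894 and 903 in calvaria and 378 and 384 in mandible. It had the largest oxidase difference, with mandible at 22.2% of ulna (-2.17, SE 0.075, limma adjusted p = 8.80e-09) and at 41.2% of calvaria (-1.28, adjusted p = 9.01e-07). The other probe sets of Ncf1 gave -1.85 and -2.32 for mandible against ulna, so all 3 moved the same way. Cybb read 1495 and 1547 in ulna, 1064 and 1288 in calvaria and 528 and 558 in mandible, with mandible at 32.9% of ulna (-1.60, SE 0.10, limma adjusted p = 3.65e-07). A dimmer probe set of Cybb gave -1.59, but the third gave -0.69, with mandible arrays of 131 and 216, and -0.05 in calvaria against ulna, where its arrays overlapped. The probe sets of Cybb were thus all lower in mandible but differed in size, and the third did not pass the test in calvaria against ulna. Ncf4 read 602 and 644 in ulna, 453 and 447 in calvaria and 249 and 256 in mandible. Cyba, which many cell types express, read 1800.3 and 1886 in ulna, 1459 and 1703 in calvaria and 949 and 836 in mandible. Cyba had the smallest oxidase difference from ulna, -0.30 in calvaria and -1.17 in mandible, and Ncf4 stood at -0.55 and -1.42.

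Of the 28 genes, Csf3r and Cxcr2 had the largest differences between calvaria and ulna, while Fpr2 and Itgam, the other receptor and adhesion genes, differed less. Csf3r, the receptor for granulocyte colony-stimulating factor, which drives neutrophil production, read 557 and 644 in ulna, 244 and 232 in calvaria and 174 and 123 in mandible. Calvaria held 37.7% of the ulna level (-1.41, SE 0.16, limma adjusted p = 6.17e-05) and mandible 22.6% (-2.15, adjusted p = 1.48e-06), and mandible was below calvaria by less than 2-fold (-0.74, adjusted p = 0.00633). Csf3r remained at -1.41 without moderation of the variances, where its adjusted p rose to 0.0563. Cxcr2, the chemokine receptor that draws mature neutrophils out of the marrow, read 219 and 289 in ulna, 127 and 137 in calvaria and 192 and 111 in mandible. Both calvaria arrays were below both ulna arrays (-1.01, SE 0.23, limma adjusted p = 0.0074), while the mandible arrays spread around calvaria (0.11, adjusted p = 0.79, and -0.28 without mandible replicate 1). Fpr2, a receptor for formylated peptides, read 1219 and 1375 in ulna, 1064 and 1050.1 in calvaria and 573 and 581 in mandible, and was at 41.1% of ulna in mandible (-1.28, SE 0.08). Itgam, the alpha chain of the integrin Mac-1 that monocytes share, read 231 and 225 in ulna, 192 and 181 in calvaria and 97.8 and 86.0 in mandible. Its mandible difference was called (-1.43, SE 0.14, limma adjusted p = 1.31e-05), and its calvaria difference of -0.37 was not past the threshold (adjusted p = 0.0724).

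The cytosolic proteins and the cytokine differed widely among themselves in mandible, from -1.97 to -0.23 against ulna. S100a9 and S100a8 are the calcium-binding partners of calprotectin, the most plentiful protein of neutrophil cytosol. S100a9 read 18398 and 19117 in ulna, 17235 and 18259 in calvaria and 17455 and 17251 in mandible, and S100a8 read 17796 and 16857 in ulna, 15661 and 16135 in calvaria and 14286 and 15291 in mandible. S100a9 was the brightest probe set on each of the 6 arrays, and its deposited signals in calvaria and mandible overlapped. Its differences from ulna were the smallest of the list in mandible, -0.23 (SE 0.05, limma adjusted p = 0.00445), beside -0.35 for S100a8 (adjusted p = 4.68e-04). Whether signals this high still follow the amount of RNA was not tested. Padi4, the enzyme that citrullinates histones when neutrophils cast out chromatin, read 233 and 245 in ulna, 185 and 200.2 in calvaria and 66.1 and 66.3 in mandible. It had the largest difference of the list between mandible and calvaria (-1.58, SE 0.14, limma adjusted p = 2.22e-05), with calvaria near ulna (-0.39, adjusted p = 0.0651). Il1b, interleukin 1 beta, which monocytes also make, read 233 and 231 in ulna, 133 and 150.2 in calvaria and 112 and 121 in mandible. For Il1b the step lay between ulna and calvaria (-0.79, SE 0.14, limma adjusted p = 0.00175), and mandible against calvaria did not pass (-0.32, adjusted p = 0.149). Its call in mandible against ulna lay at the limit, at -1.11 and at -0.99 on the values as deposited.

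Other genes of these pathways, on lists chosen with earlier results of these data known, were also called lower more often than higher. Of 13 tested genes of oxidase function and phagocyte signalling, 9 were called lower in mandible than in ulna (background 11.3%) and none higher (background 9.36%). Their median was -1.27 over the 13. Among the 9 were the kinases Fgr (-2.47) and Syk (-2.27) and Vav1 (-2.12), an exchange factor for Rac. In calvaria 2 of the 13 were called lower than in ulna (background 4.95%), Fgr (-1.26) and Alox5 (-1.08), the lipoxygenase of leukotriene synthesis. Of 25 other genes of neutrophil granules and late stages, 16 were called lower in mandible than in ulna (background 11.3%). In calvaria 3 were called lower than in ulna (background 4.95%). The calvaria calls were the stefins Stfa3 and Stfa2l1 (-2.07) and Olfm4 (-1.83), olfactomedin 4, a secondary granule protein found in a subset of neutrophils. Stfa3 read 94.7 and 98.3 in ulna but 16.6 and 21.6 in calvaria, below the array median, so its difference of -2.42 (SE 0.63) is not an exact size. Olfm4 read 506 and 561 in ulna, 164 and 152 in calvaria and 72.2 and 77.2 in mandible, a steeper fall than that of any of the 28 listed genes. The call that went up was G0s2, an inhibitor of lipolysis that fat and other tissues also express, which read 393 and 358 in mandible against 85.8 and 122 in calvaria (1.83, SE 0.18, limma adjusted p = 3.88e-05). Mmp9, a gelatinase of tertiary granules that osteoclasts also make in quantity, was picked out after its values were seen. It was higher in calvaria than in ulna (0.53, SE 0.09, limma adjusted p = 0.00153). In mandible it was lower than in ulna (-0.49, adjusted p = 0.0016) and called lower than in calvaria (-1.02, adjusted p = 2.51e-05).

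Regulators of granulocytes and, in smaller part, early progenitor genes were called lower in mandible than in ulna. Of 15 tested regulators and niche signals of granulocytes, 10 were called lower in mandible than in ulna (background 11.3%). The median over the 15 was -1.27. The 10 included the myeloid factors Irf8 (-2.15) and Cebpa (-2.13) and Myb (-1.90), a factor of immature blood cells. Hoxa9 had the largest difference (-4.95), but its mandible signals of 2.01 and 17.4 lay below the array median, so this size is not exact. In calvaria, Runx1 (-1.13) and Hoxa9 (-2.54, SE 0.79) were called lower than in ulna (background 4.95%). Hoxa9 again has no exact size, since its calvaria signals of 38.4 and 24.6 lay around the array median. Hoxa9 is also a Hox gene, and the study reports several Hoxa genes as lower in skull than in limb bone. The ulna is the limb site here, and the part of bone position in the differences of Hoxa9 was not tested. Of 10 genes of azurophil granules and early progenitors, 4 were called lower in mandible than in ulna (background 11.3%). None was called lower in calvaria than in ulna (background 4.95%). The medians over the 10 genes were -0.82 and -0.26. By the adjusted p alone, 6 of these 10 were lower in mandible than in ulna (background 26.6%). Another 2 were higher, both by under 2-fold, which is near the background of 16.8%.

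Markers of other cell types differed between the same sites. The summed signal of 10 tested erythroid markers was 61.2% of ulna in calvaria and 36.2% in mandible. That of 6 megakaryocyte markers was 54.5% and 44.6%. All 10 and all 6 were called lower in mandible than in ulna (background 11.3%). B cell markers (11 tested) stood at 112% in calvaria and 62.5% in mandible, and macrophage and monocyte markers (12 tested) at 102% and 61.4%. None of the 23 was called lower in calvaria than in ulna (background 4.95%). With so low a background, this absence does not set the 23 apart. By the adjusted p alone, 2 of the 11 B cell markers were lower in calvaria (background 16.6%), Dntt (-0.92) and Ms4a1 (-0.41), and 3 were higher. Of the 12 macrophage and monocyte markers, 2 were lower (background 16.6%), F13a1 (-0.94) and Ccr2 (-0.86), and 5 were higher. The background for higher in calvaria than in ulna by the adjusted p alone was 3274 of 25233 tested probe sets. In summed signal the primary granule genes stood at 67.7% and 35.2%, the oxidase genes at 73.8% and 37.2% and the later granule genes at 85.1% and 56.0%. These sums weigh the brightest probe sets most: the median over genes was 65.1% and 32.9% for the primary, 70.8% and 35.1% for the oxidase and 74.1% and 42.8% for the later granule genes. Osteoblast markers were 417% of ulna in calvaria and 403% in mandible, osteoclast markers 568% and 308%, muscle markers 11.1% and 86.1%, epithelial markers 77.4% and 1789%, and adipocyte markers 39.8% and 31.2%. The part of this mixture of tissues in the differences of the neutrophil genes was not tested. The eosinophil and mast cell markers, which mark other granulocytes, were at a summed 148% of ulna in calvaria and 105% in mandible, most of it the signal of Prg2. The median over the 7 tested genes was 123% and 81.9%, and 2 of the 7 were called lower in mandible than in ulna (background 11.3%).

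**Figure D4:**
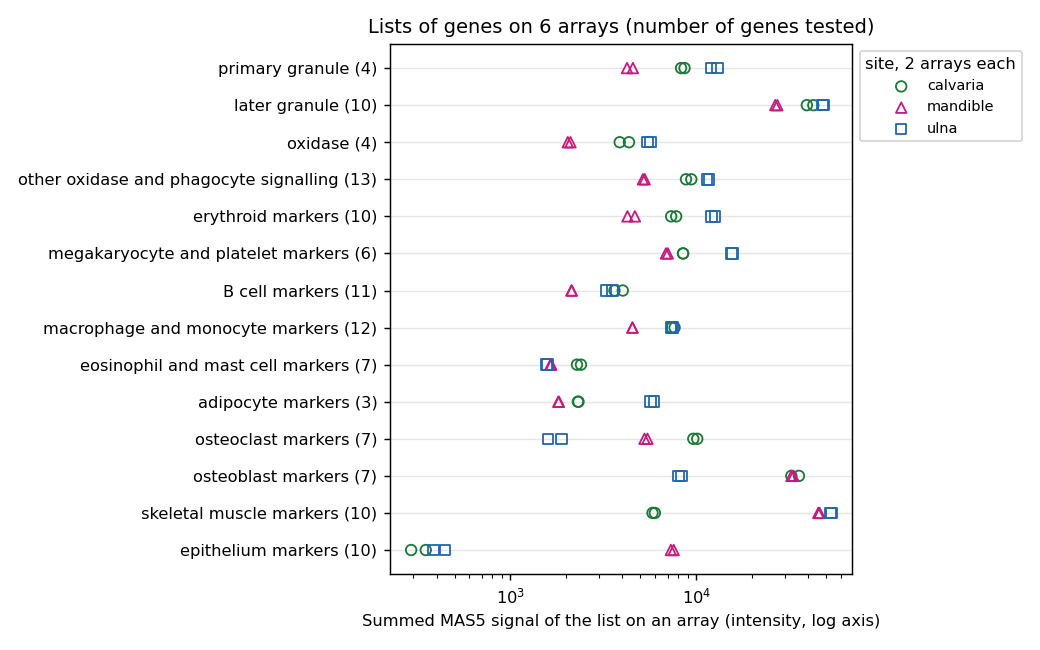
Summed MAS5 signal (intensity, log axis) of neutrophil groups and of marker lists of other cell types, with 1 point for each of 6 arrays and the number of genes tested in brackets. The neutrophil, erythroid and megakaryocyte points fall from ulna to calvaria to mandible, while B cell and macrophage points fall only in mandible.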

How the data were processed

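RNA of calvaria, mandible and ulna was hybridised to 6 mouse GeneChip arrays, 2 for each site. The deposited values are MAS5 signal intensities, which carry a 2% trimmed mean of 100 by the authors' scaling; all 6 columns were matched to a site. Each array was divided by its median and log2 was taken without an offset. Control probe sets (64) were left out, and 25233 probe sets with a signal over the median of 2 or more arrays were tested. Site means were estimated by limma 3.58.1 under R 4.3.3 (eBayes with a variance trend, residual degrees of freedom 3, prior 7.67), with Benjamini-Hochberg adjustment for each comparison. The median standard deviation within a site was 0.194. Of several probe sets of a gene, the tested one with the highest mean was used. The fit was tested on simulated data. The members, the lists and the rule for naming genes of other lists (at most 4 called genes for each list and comparison by size) were chosen with earlier results of these data known. Overlap was judged on scaled values. Other scalings, filters, variances, probe sets and samples were tried. Figures used matplotlib 3.10.9 and Python 3.11.15. Upstream sequences came from RefSeq.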

Additional observations from a re-analysis of the deposited data

How the results depend on the processing

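In mandible against ulna, 19 to 28 of 28 genes were called lower over all alternatives, and none higher. The 28 came only from the adjusted p alone, with no 2-fold limit (background 26.6%, against 11.3% with the limit). Lcn2, Mmp8 and Il1b lost their calls under some scalings, Lcn2 and Mmp8 also under some left-out arrays, and Cxcr2 gained a call without mandible replicate 1 or without ulna replicate 1. The count in calvaria against ulna was less stable. It was 1 instead of 2 on the values as deposited, with 75th percentile scaling and with quantile normalization. An offset of 0.25 array medians or no variance trend also gave 1. The count was 0 without moderation and 23 by the adjusted p alone, with no 2-fold limit (background 16.6%). By the adjusted p alone it was 13 without a trend and 11 without moderation. In mandible against calvaria, 24 genes instead of 10 passed by the adjusted p alone (background 13.5%). The median of the 28 genes in calvaria against ulna was -0.45 on the values as deposited, -0.47 with 75th percentile scaling and -0.39 with quantile normalization, and -0.56 to -0.47 when each array was left out. In mandible against ulna it was -1.31, -1.32 and -1.32, and in mandible against calvaria -0.90 with 75th percentile scaling. A set of later genes with no array above the highest signal of Mpo was chosen after seeing the data. With it, primary minus later was -0.115 in mandible against ulna and -0.15 in calvaria against ulna. It turned to 0.035 in mandible against calvaria. Signs that turned lay near 0: Chil3 in calvaria against ulna (-0.008 to 0.022 when each array was left out), Mmp8 (0.039 as deposited, 0.018 with 75th percentile scaling, 0.12 with quantile normalization, and -0.116 to 0.041 when each array was left out) and Cxcr2 in mandible against calvaria (-0.281 without mandible replicate 1, 0.496 without mandible replicate 2). With the replicate number as a block, the counts of calls stayed 2, 22 and 10. Same-numbered arrays did not deviate together (correlations of -0.0048, 0.0058 and -0.012). These correlations cannot show whether same-numbered arrays came from the same mice. The cause of these shifts was not tested. With quantile normalization S100a9 has no difference by construction, since it is the highest value of each array.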
